A study of Mus musculus with 3 samples.

Results

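The genes of the mitochondrial respiratory chain and the ATP synthase were examined in mouse skin cells that carry integrin alpha6 and lack Sca1. Members were chosen by gene symbol: the subunit families Nduf (a, b, c, s and v), Sdh, Uqcr, Cox4 to Cox8 and Atp5, the cytochrome c gene Cycs, and the protein-coding genes of the mitochondrial genome, without pseudogenes. The rule gave 97 members of the 44548 genes in the table. Of these, 84 lie in the nuclear genome (37 of complex I, 4 of complex II, 8 of complex III, 17 of complex IV, 17 of complex V and Cycs). The other 13 are the mRNA genes of mitochondrial DNA (7 of complex I, 1 of complex III, 3 of complex IV and 2 of complex V). Cox4i1, the usual form of a core complex IV subunit, was not analysed here.

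Complexes I to IV pass electrons from NADH and succinate to oxygen. Complexes I, III and IV pump protons across the inner mitochondrial membrane, and complex V, the ATP synthase, uses the returning protons to make ATP. Complex II is built from nuclear genes alone, whereas the other complexes join nuclear subunits with subunits made inside the mitochondrion. Mitochondrial mRNAs are cut out of long transcripts of the whole circular genome, and in several of them the poly(A) tail completes the stop codon.

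Polyadenylated RNA was sequenced from 3 libraries of 1 group: alpha6+/Sca1- cells sorted from back skin of 56-day-old wild-type (WT) mice, whose hair follicles were in their second rest (telogen). The libraries are numbered as replicates 1 to 3, although the labels' treatment protocol speaks of duplicates, so their independence is unclear and any p-value measures only the spread between these samples. Cells were freed from skin pieces of all samples with 0.8% trypsin. The labels' protocol names an antibody to integrin alpha6 and none to Sca1, and the series title names hair follicle stem cells and PRDM16. The libraries held 29283936, 35264901 and 39198620 counts.

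The sort label was set against marker genes. In TPM (a level per gene length that sums to the same total in each library), the 8 hair follicle stem cell markers summed to 24870, 31896 and 30057 in replicates 1, 2 and 3, and the 5 basal keratinocyte markers to 19693, 28990 and 25677. Of the 10 skeletal muscle markers, 9 were in the table and summed to 8.77, 6.36 and 7.12, nearly all of it Mylpf, with Myh1, Myh4 and Tnnt3 at 0 counts. Brown or beige adipocyte markers summed to 1.73 to 2.70 with Ucp1 at 0, endothelial markers to 0.239 to 0.373, fibroblast markers to 0.511 to 0.593, and immune markers to 2.24 to 5.03. Suprabasal epidermis markers were higher than these, at 2072, 3567 and 5569, and sebaceous gland markers were at 174, 203 and 269. Immediate-early and heat-shock genes that respond to cell dissociation stood at 22931, 13622 and 10018, and all 9 of them were highest in replicate 1. As these are bulk samples, a higher share of a cell type and more RNA per cell cannot be told apart.

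At a TPM of at least 1, 91, 90 and 90 of the 97 members were detected, against 30.7% of all genes by their mean. The nuclear genes accounted for 79, 78 and 78 of these and the mitochondrial genes for 12 in each library. With 0 counts in every library, Cox6a2, Cox7b2, Cox8b and Cox8c are known as forms of heart and skeletal muscle (Cox6a2, Cox8b) or testis (Cox7b2, Cox8c). The authors' deposited table also gives each gene a whole number headed H3K27me3, a histone mark of repressed genes, whose unit and source are not stated. It was above 0 for 0 of the 97 members and for 8.06% of all genes.

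The 13 mitochondrial mRNAs held 3.93%, 5.82% and 5.31% of all counts in the 3 libraries, with 95% Wilson intervals of 3.92 to 3.94, 5.82 to 5.83 and 5.31 to 5.32 and a mean of 5.02% ± 0.981 (SD, n = 3). The 84 nuclear genes together took 0.844%, 0.942% and 0.973%, a mean of 0.920% ± 0.0671 (SD, n = 3). Both shares were lowest in replicate 1. The intervals cover counting error only and are far narrower than the spread between libraries.

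The 13 mitochondrial genes fell into 2 ranges of counts. The 8 genes mt-Nd1, mt-Nd2, mt-Co1, mt-Atp8, mt-Nd4, mt-Nd5, mt-Nd6 and mt-Cytb had 4944 to 896143 counts per library. The 5 genes mt-Co2, mt-Atp6, mt-Co3, mt-Nd3 and mt-Nd4l had 0 to 298. These 5 have an annotated nuclear copy that is at least 99% identical over at least 90% of the gene, and none of the other 8 has one. All 5 copies, annotated as unprocessed pseudogenes, lie side by side on the minus strand of chromosome 1 (GRCm38), from 24612407 to 24615565, where a stretch of mitochondrial DNA sits in the nuclear genome. Only annotated transcripts were searched for copies. mt-Atp8 (chrM:7766-7969) lies between mt-Co2 (chrM:7013-7696) and mt-Atp6 (chrM:7927-8607), whose copies follow each other on chromosome 1. An unannotated copy of mt-Atp8 between them was not looked for. How the authors' counting treated a read that matches both places is not given in the sources used here, so the counts of these 5 genes are uncertain and give no level of the mRNA.

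mt-Co2, the copper-binding subunit of complex IV, had 72, 261 and 298 counts and is identical to Gm28661 over 681 bases, 99.6% of the gene. mt-Atp6, the proton channel subunit of complex V, had 105, 87 and 159 counts and is identical to Gm10925 over 678 bases. For mt-Co3, a core subunit of complex IV, the counts were 20, 32 and 26, and the gene is identical to Gm28437 over 783 bases. mt-Nd4l, a small membrane subunit of complex I, had 0, 2 and 0 counts and is identical to Gm10222 over 294 bases. Few reads were counted on the copies either: Gm28661 had 42, 52 and 21 counts, Gm10925 had 119, 24 and 13, Gm28437 had 29, 50 and 4, and Gm10222 had 1, 1 and 3. Counts on the copied genes made up 0.0213%, 0.0203% and 0.0250% of the mitochondrial mRNA counts. mt-Nd3, a further membrane subunit of complex I, had 48, 34 and 38 counts, and its copy Gm28438 had 111, 72 and 90. This pair is 99.7% identical over 345 bases and differs by T3C, with positions counted from the first base of mt-Nd3. The starts are shown because they hold the only substitution between these 5 genes and their copies over the aligned bases. The mt-Nd3 stretch is chrM:9459-9481 (plus strand) and the copy's is chr1:24613097-24613119 (minus strand), both read from GENCODE M21 transcripts on GRCm38, with the differing base in capitals.
mt-Nd3: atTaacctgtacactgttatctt
Gm28438: atCaacctgtacactgttatctt

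**Figure D1:**
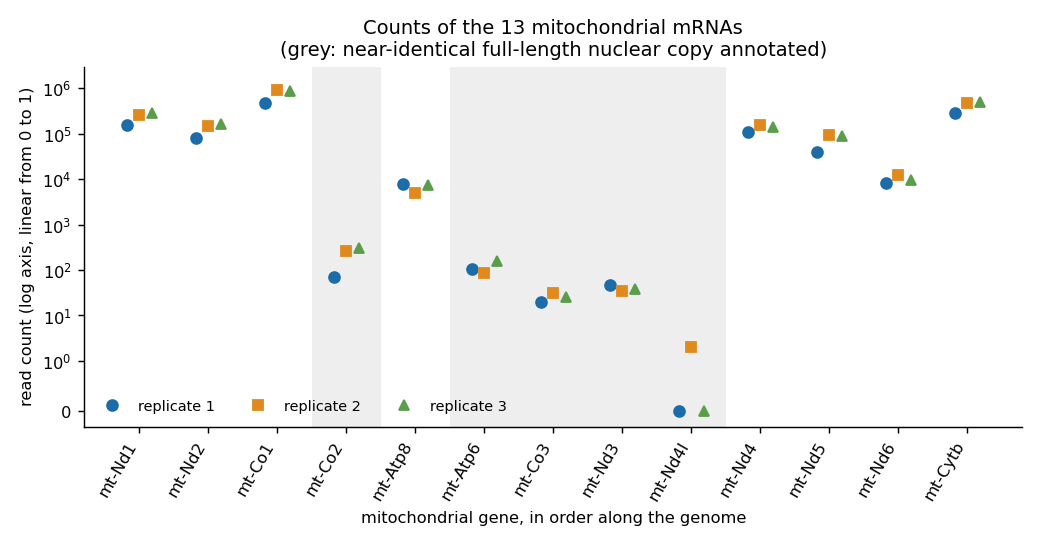
Read counts (log axis, linear from 0 to 1) of the 13 mitochondrial mRNAs in the 3 libraries, in order along the mitochondrial genome, with grey bands over genes that have a near-identical full-length nuclear copy. The 5 genes under grey bands have 0 to 298 counts and the other 8 have 4944 to 896143.

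Copies that are partial or less alike went with high counts. mt-Nd4, a proton-pumping subunit of complex I, had 108345, 157999 and 141973 counts although 63.6% of it is identical to Gm28439. mt-Co1, the catalytic subunit of complex IV, had the most counts of all members, 465627, 896143 and 880297, although 31.3% of it is 99.8% identical to Gm29216 and all 1545 bases are 97.6% identical to Gm13340. Gm13340 had 138, 579 and 362 counts. mt-Nd6 and mt-Cytb also have copies over at least 99.8% of their length, Gm11408 at 93.6% identity and Gm11410 at 92.9%, and both copies had 0 counts. The TPM of mt-Co1 was 27960, 42361 and 36941, a mean of 35754 ± 7273 (SD, n = 3), lowest in replicate 1.

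Among the other mitochondrial genes, mt-Cytb, the only complex III gene of mitochondrial DNA, had 284291, 485483 and 504102 counts and a TPM of 27539 ± 4068 (SD, n = 3). mt-Nd1 had 156847, 255606 and 281695 counts and a TPM of 17932 ± 2371 (SD, n = 3), and mt-Nd2 had 78477, 144830 and 167675 counts. Both encode membrane subunits of complex I, and both were lowest in replicate 1. mt-Nd5, which forms the far end of the complex I membrane arm, had 40319, 95845 and 89292 counts and a TPM of 3021 ± 903 (SD, n = 3). mt-Nd6, the only mRNA gene on the opposite (light) strand, had 8229, 12235 and 9429 counts and a TPM of 1457 ± 272 (SD, n = 3). mt-Atp8, a small membrane subunit of complex V, ran the other way from most: its 7889, 4944 and 7360 counts gave TPM values of 3588, 1770 and 2339, highest in replicate 1. Of the 8 genes with no annotated near-identical full-length copy, 5 had their lowest TPM in replicate 1.

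Some neighbouring mitochondrial genes share bases, so that their reads cannot always be assigned to 1 gene. mt-Atp8 and mt-Atp6 share 43 bases (chrM:7907-7989 shown, plus strand), and mt-Nd4l and mt-Nd4 share 7 bases (chrM:10147-10193 shown, plus strand). In each pair a gene with many counts touches one with few. The shared bases are in capitals.
mt-Atp8/mt-Atp6: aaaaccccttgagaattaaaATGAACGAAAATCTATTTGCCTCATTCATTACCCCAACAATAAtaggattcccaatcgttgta
mt-Nd4l/mt-Nd4: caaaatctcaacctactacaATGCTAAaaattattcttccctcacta

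The annotated ends of mt-Co3, mt-Nd4 and mt-Cytb show the feature that ties these mRNAs to polyadenylation. In these 3 of the 13 genes a single base, T, follows the last whole codon, and a poly(A) tail turns it into a TAA stop. The last 24 bases of each (chrM:9367-9390, chrM:11521-11544 and chrM:15265-15288, plus strand) are given with that base in capitals.
mt-Co3: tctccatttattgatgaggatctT
mt-Nd4: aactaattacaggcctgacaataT
mt-Cytb: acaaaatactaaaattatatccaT

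Nuclear subunits were expressed at lower and more even levels. Of the 84 nuclear genes, 62 had a mean TPM between 50 and 500. The median over all 84 was 126, 127 and 129 TPM in replicates 1, 2 and 3. By complex, the median was 115 ± 7.54 TPM for complex I, 114 ± 1.07 for complex II, 205 ± 15.8 for complex III, 90.1 ± 8.11 for complex IV and 192 ± 16.1 for complex V (SD, n = 3). The complex III and V medians were above those of complexes I, II and IV in each library. Between complexes III and V the gap was within the spread of the replicates, and between complexes I and II as well. The complex IV median includes the 4 genes with 0 counts, and over its members with a mean TPM of at least 1 it was 209.7.

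These levels rest on the gene length the authors deposited. With the length of the principal protein-coding transcript in GENCODE M21 in its place, the medians became 129 for complex I, 117 for complex II, 282 for complex III, 204 for complex IV and 336 for complex V. Single genes moved further: Atp5l (subunit g of the ATP synthase) went from a mean TPM of 24.9 to 218, Ndufb7 from 19.9 to 107 and Atp5e (the epsilon subunit) from 207 to 640.

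**Figure D2:**
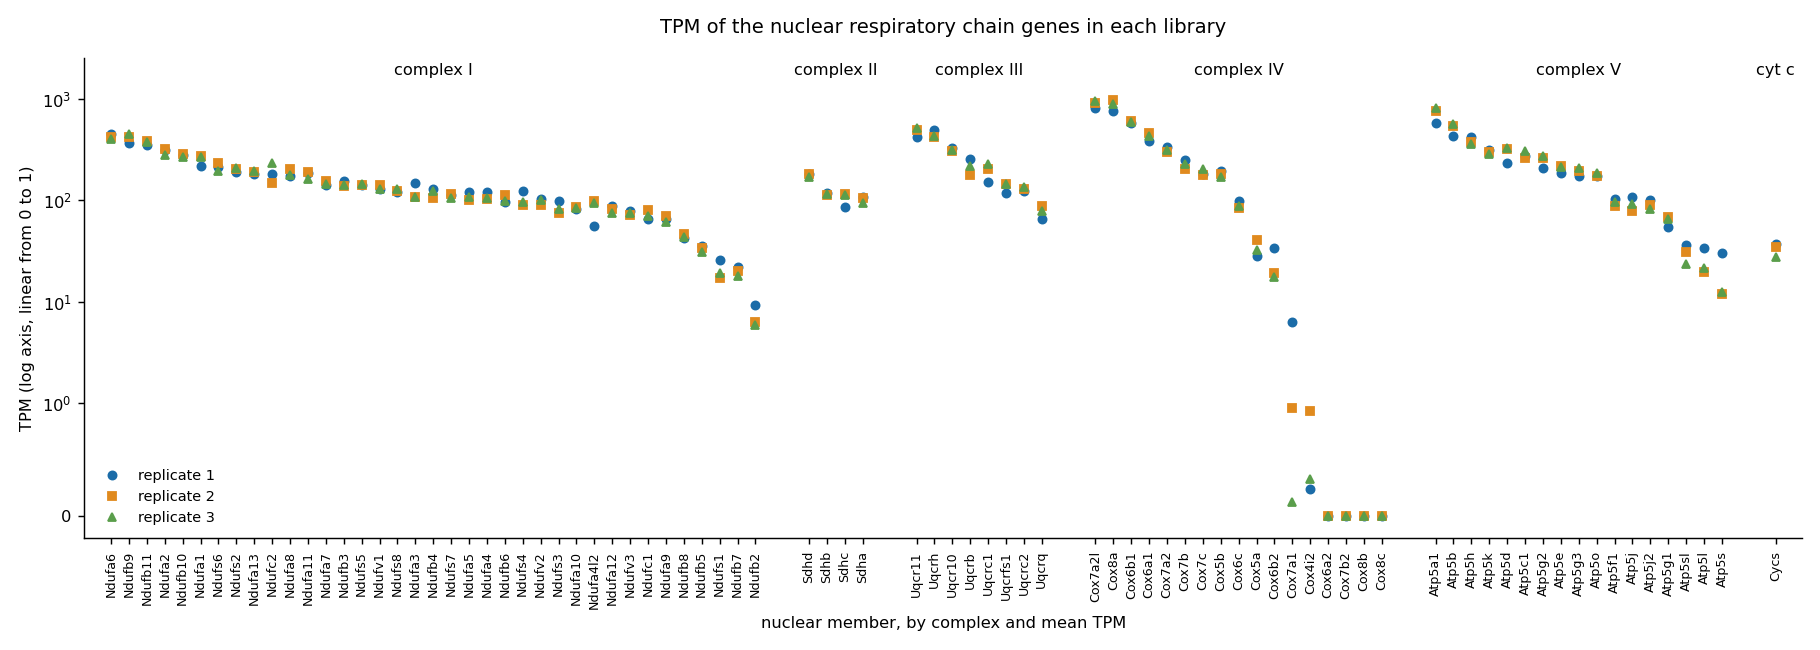
TPM (log axis, linear from 0 to 1) of each of the 84 nuclear genes in the 3 libraries, ordered within each complex by the mean. Most genes lie between 50 and 500 TPM in all 3 libraries, and 4 complex IV genes lie at 0.

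Complex I takes electrons from NADH. By deposited TPM its highest nuclear gene was Ndufa6 (GRCm38, chromosome 15, 82350140 to 82354322, minus strand), an accessory subunit, with 454, 418 and 398 TPM. Next came Ndufb9 and Ndufb11, accessory subunits of the membrane arm, with 363, 419 and 445 TPM and 349, 379 and 373 TPM. The order of these 3 genes differed between libraries. With principal transcript lengths Ndufa11 (647 TPM), Ndufa7 (354 TPM) and Ndufb10 (344 TPM) stood above Ndufa6 (298 TPM). At the low end, Ndufb7 had 22.0, 19.8 and 17.9 TPM and Ndufb2 had 9.20, 6.24 and 5.93 TPM (558, 481 and 515 counts). Ndufb2 stayed low with the principal transcript length, at a mean of 6.80 TPM, whereas Ndufb7 did not, as given above.

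Complex II, succinate dehydrogenase, also works in the tricarboxylic acid cycle. Its genes were close in level, with 182, 180 and 171 TPM for Sdhd (a membrane anchor), 118, 114 and 116 for Sdhb (the iron-sulphur subunit), 86.0, 116 and 113 for Sdhc (the other anchor) and 108, 105 and 92.9 for Sdha (the flavoprotein). By deposited TPM Sdhd was highest in each library, and the order of the other 3 changed between libraries. With principal transcript lengths Sdhb (a mean of 169 TPM) stood above Sdhd (132 TPM).

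Complex III passes electrons to cytochrome c. Uqcr11 (416, 494 and 514 TPM), Uqcrh (498, 417 and 434 TPM) and Uqcr10 (326, 307 and 315 TPM), all small subunits, were the highest of its 8 genes by deposited TPM, and with principal transcript lengths Uqcrc1, a core subunit, stood above Uqcr10 (359 against 316 TPM). Uqcr11 and Uqcrh exchanged places between libraries. Uqcrc2, a core subunit, had 122, 130 and 134 TPM, and the lowest, Uqcrq, a small subunit, had 65.9, 88.3 and 78.2 TPM. Cycs, the carrier cytochrome c itself, had 37.1, 34.9 and 27.8 TPM, below each of the 8 genes in every library.

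Complex IV reduces oxygen. By deposited TPM, the highest mean of all 84 nuclear genes was that of Cox7a2l (chromosome 17, 83501918 to 83517330, minus strand), whose protein is known to join complexes III and IV into supercomplexes, with 804, 908 and 953 TPM. With principal transcript lengths Atp5b (843 TPM) and Uqcrh (755 TPM) stood above Cox7a2l (704 TPM). Cox8a followed with 766, 965 and 889 TPM (chromosome 19, 7215153 to 7217616, minus strand), and these genes did not keep 1 order over the libraries. Cox6b1, which links the monomers of the complex IV dimer, had 576, 601 and 592 TPM, a mean of 590 ± 12.6 (SD, n = 3). Cox5b had 194, 183 and 168 TPM.

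Complex V makes ATP from ADP in its catalytic head, which a stalk holds in place. Atp5a1, the alpha subunit, had 582, 763 and 817 TPM, and Atp5b, the catalytic beta subunit, had 431, 540 and 567 TPM, both lowest in replicate 1. With principal transcript lengths Atp5b (843 TPM) stood above Atp5a1 (680 TPM). Atp5h, subunit d of the stalk, had 423, 372 and 359 TPM, highest in replicate 1. At the low end were Atp5l, with 33.4, 19.7 and 21.6 TPM, and Atp5s (factor B, which associates with the synthase), with 30.1, 11.9 and 12.5 TPM.

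Mitochondrial and nuclear genes of the same complex were set side by side as the difference of their median log2(TPM + 1). For complex III, mt-Cytb exceeded the nuclear median by 6.87, 7.35 and 7.01, a mean of 7.07 ± 0.25 (SD, n = 3). Over all 7 mitochondrial genes of complex I the difference was 4.66 ± 0.54, and over the 5 with no annotated near-identical full-length nuclear copy it was 5.98 ± 0.19 (SD, n = 3). For complex IV the sign turned with the copied genes in each library. For complex V the difference with them was 0.41, -0.54 and -0.10 in replicates 1, 2 and 3, so it had no fixed sign. With them, the difference was -2.12 ± 0.95 for complex IV and -0.07 ± 0.48 for complex V (SD, n = 3). Without them, mt-Co1 alone stood 8.60 ± 0.43 above the nuclear median of complex IV, and mt-Atp8 alone 3.67 ± 0.61 above that of complex V (SD, n = 3). The complex V value therefore rests on mt-Atp8, for which an unannotated nuclear copy was not looked for. Leaving out the copied genes was chosen after seeing the data.

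Several subunits exist in alternative forms encoded by separate genes, one widespread and one typical of muscle, testis or lung. The widespread form was higher in each library in every one of the 6 Cox pairs. Cox6a1 had 385, 462 and 433 TPM and Cox6a2 had 0 counts, so that Cox6a1 was at least 941-fold higher than the 3 counts per library that a count of 0 allows. By the same limit Cox7b (247, 205 and 226 TPM) was at least 482-fold higher than Cox7b2. Cox8a was at least 991-fold higher than Cox8b and at least 1310-fold higher than Cox8c.

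The partner was present in the other Cox pairs. Cox6b2, known from testis, had 34.0, 19.2 and 17.4 TPM (406, 291 and 298 counts), and the ratio of Cox6b1 to it was 17.0, 31.4 and 33.9, or 10.3, 19.0 and 20.5 with principal transcript lengths. The other testis genes listed were near 0: Cox7b2 and Cox8c had no counts, and Slc25a31, the testis ADP/ATP carrier, had 2, 0 and 0. Cox7a1, the muscle form, had 36, 7 and 1 counts, and Cox7a2 (335, 297 and 315 TPM) exceeded it 53.6, 311 and 2596 times. Cox7a1 was thus highest in replicate 1, the library with the highest summed level of skeletal muscle markers, and the part of muscle RNA in it was not tested. Cox4i2, the lung form of a core subunit, had 2, 10 and 4 counts.

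Ndufa4 was also above its paralogue Ndufa4l2 in each library, but by a smaller ratio than in the Cox pairs. Ndufa4, a gene named after complex I whose protein is now placed in complex IV, had 119, 102 and 105 TPM. Its paralogue Ndufa4l2, known as a target of hypoxia signalling, had 55.3, 97.1 and 93.8 TPM (572, 1277 and 1389 counts). The ratio was 2.16 in replicate 1, 1.05 in replicate 2 and 1.12 in replicate 3, a mean log2 ratio of 0.44 ± 0.57 (SD, n = 3), so by the deposited gene lengths the mean difference was within the spread of the replicates. With principal transcript lengths, the ratios were 4.75, 2.32 and 2.46 and the mean log2 ratio 1.57 ± 0.56 (SD, n = 3). Ndufa4 was thus the higher gene under both lengths, and the size of the gap depended on the length used. Under both lengths the ratio was highest in replicate 1.

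The genes Atp5g1, Atp5g2 and Atp5g3 encode the same mature c subunit of the ATP synthase ring with different import sequences. They had 54.4, 67.9 and 65.9 TPM, 207, 260 and 271 TPM, and 175, 196 and 207 TPM. Atp5g2 was 3.81, 3.83 and 4.11 times Atp5g1, a mean log2 ratio of 1.95 ± 0.06 (SD, n = 3), and the log2 ratio of Atp5g3 to Atp5g1 was 1.60 ± 0.08 (SD, n = 3). Between Atp5g3 and Atp5g2 it was -0.35 ± 0.09 (SD, n = 3). With principal transcript lengths the first 2 log2 ratios became 3.08 ± 0.06 and 3.13 ± 0.08, and that of Atp5g3 to Atp5g2 became 0.05 ± 0.09 (SD, n = 3), so Atp5g1 was lowest under both lengths and Atp5g2 and Atp5g3 had no fixed order. Gm10175, a pseudogene identical to Atp5g2 over 645 bases, held counts equal to 0.642%, 3.94% and 6.66% of those of Atp5g2. Over the 10 pairs, each two-sided exact sign-flip permutation test gave p = 0.25, the smallest p that 3 replicates allow, and 0.25 after Benjamini-Hochberg adjustment. The design therefore cannot pass a threshold of 0.05 for any pair.

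**Figure D3:**
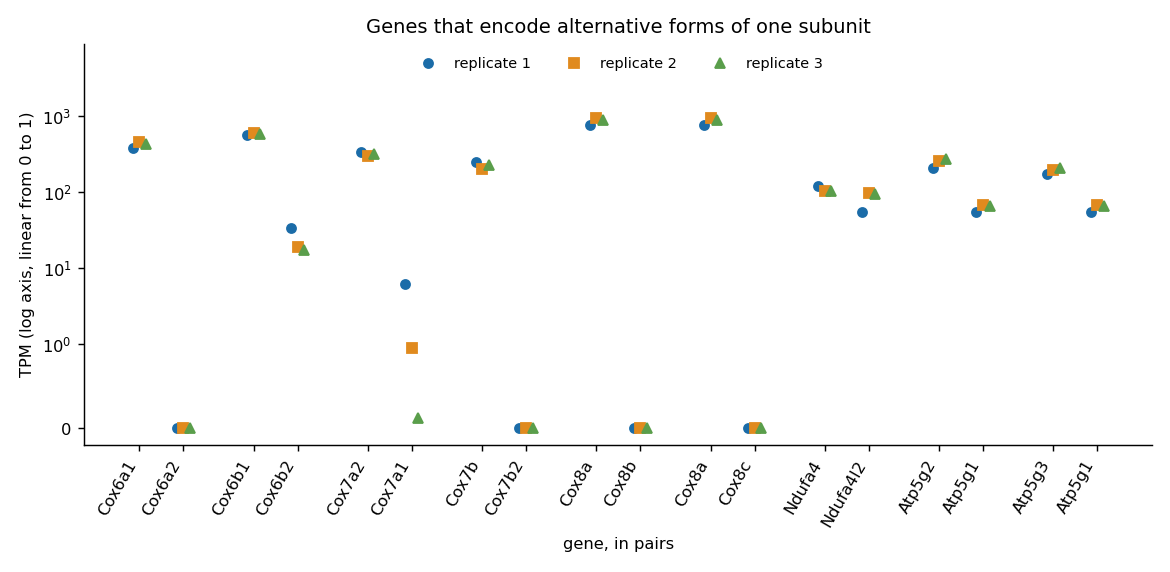
TPM (log axis, linear from 0 to 1) of paired genes for alternative forms of a subunit in the 3 libraries, with one symbol per library. The second gene of each Cox pair lies below the first in all 3 libraries, 4 of them at 0, while Ndufa4 and Ndufa4l2 lie close together in replicates 2 and 3.

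Nuclear genes of the chain varied little between the libraries. The log2 range of TPM + 1 over replicates had a median of 0.25 over the 79 nuclear genes at a mean of 1 TPM or more, against 0.54 over all such genes and 0.43 over genes with a mean TPM of 10 to 1000. A range under 0.5 was found for 67 of these 79 genes (84.8%) and for 57.5% of the genes between 10 and 1000 TPM. For the mitochondrial genes the median range was 0.59.

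Replicate 1 stood apart from the others in many genes, though in few of the respiratory chain. A gene was counted as deviating when it lay more than 1 from both other libraries in the same direction on the log2(TPM + 1) scale. In replicate 1, 3 of 91 members deviated, against 12.9% of all genes: Atp5s and Cox7a1 were higher, and mt-Co2 was lower. In replicate 2 the members numbered 0, against 1.68%, and in replicate 3 again 0, against 2.88%. These shares are over genes of every level from 1 TPM up, and no share matched to the level of the members was computed. On the same scale and for genes at that level, the difference between replicate 1 and the mean of the others had a median of 0.24 over all of them, 0.03 over the nuclear genes of the chain and -0.21 over the mitochondrial ones. By complex the nuclear medians were 0.03, 0.04, -0.19, 0.04 and -0.05 from complex I to V. The genes that respond to cell dissociation moved in replicate 1 as given above, and the part of dissociation in these differences was not tested.

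Which library was highest depended on the scaling. By TPM, 36 of the 79 nuclear genes (45.6%) were highest in the first library, 24 in the second and 19 in the third, against 59.6%, 20% and 20.4% of all genes. With factors from the trimmed mean of M values (TMM), the numbers were 9, 35 and 35, and 42.4% of all genes at that level were highest in replicate 1. The difference between the nuclear genes and all genes was not tested.

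**Figure D4:**
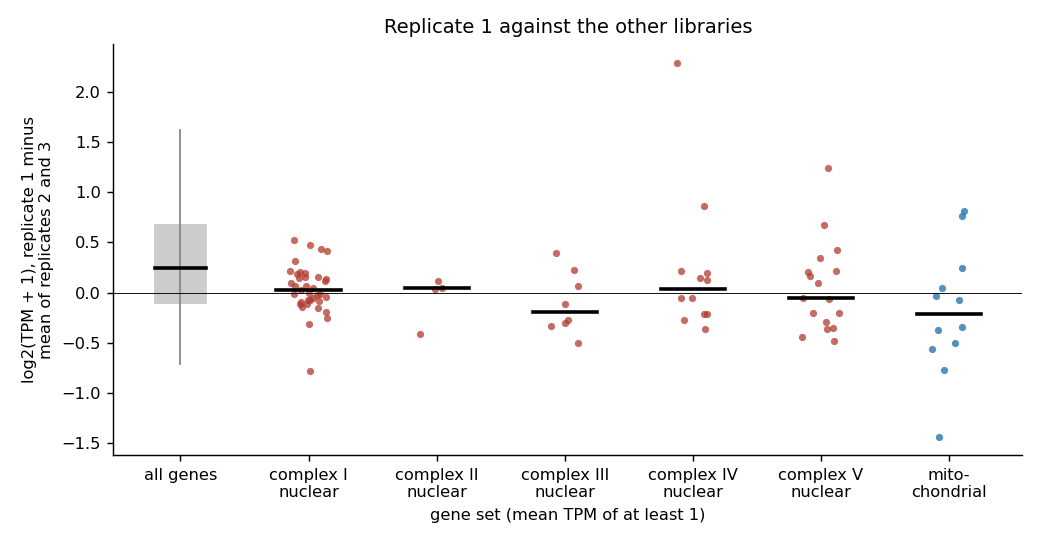
Difference on the log2(TPM + 1) scale between replicate 1 and the mean of replicates 2 and 3, for genes at a mean of 1 TPM or more. Points are genes and bars are medians, and for all genes the box spans the quartiles and the line the 5th to 95th percentile. The median is 0.24 for all genes, between -0.19 and 0.04 for the nuclear genes of each complex and -0.21 for the mitochondrial genes.

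The authors deposited a log2 fold change and an adjusted p-value per gene for a comparison that the labels do not describe. From the names of the other columns it sets these libraries against bulge libraries, which were not analysed here, and a positive value means higher in alpha6+/Sca1- cells. All 2552 genes with 0 counts in the 3 libraries and a fold change have a negative one. In the authors' deposited table, 71 of the 81 nuclear genes with an adjusted p-value were higher at a threshold of 0.05, 2 were lower and 8 passed in neither direction. Of its 20264 genes with an adjusted p-value, 23.6% were higher and 31.9% lower, 55.5% in either direction. At a mean of 10 TPM or more, 49.3% were higher and 20.8% lower. The median log2 fold change in the authors' deposited table was 2.37 over the nuclear genes, -0.36 over all genes with an adjusted p-value and 0.61 over those with a mean of 10 TPM or more. The mitochondrial ribosomal RNAs mt-Rnr1 and mt-Rnr2 were at -7.44 and -7.99 in the authors' deposited table. The part of library preparation in this comparison was not tested.

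By complex, the authors' deposited table had 34 of 37 genes higher in complex I, 3 of 4 in complex II, 8 of 8 in complex III, 11 of 14 in complex IV and 15 of 17 in complex V. Uqcr11 led with a deposited log2 fold change of 5.49 (adjusted p = 5.35e-59 in the authors' deposited table), followed by Atp5k, the small subunit e of the ATP synthase, at 5.19 (1e-45) and Ndufa6 at 4.90 (1.1e-53). In the same authors' deposited table the next genes were the small subunits Ndufa2 (4.33), Uqcrq (4.22), Ndufa5 (4.12), Ndufa1 (4.12), Cox5b (4.10), Ndufa3 (3.96) and Ndufa13 (3.83), and Ndufa4l2 (4.21). Other named subunits were lower on this scale: in the authors' deposited table Atp5a1 was at 1.27, Uqcrc2 at 0.96, Sdha at 0.33 (adjusted p = 0.14), Ndufs1 at 0.30 (0.21) and Atp5b at -0.38 (0.181). Cycs was at -0.09 (adjusted p = 0.804) in the authors' deposited table. The nuclear genes that passed as lower in the authors' deposited table were Ndufb2, at -0.77 (adjusted p = 0.00503), and Cox8b, at -3.82 (0.0118), which had 0 counts here.

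The deposited fold change moved with gene length over all genes. Across 8152 genes at a mean of 10 TPM or more, Spearman's rho between length and the fold change of the authors' deposited table was -0.556, and across the 77 nuclear genes of the chain above that level it was -0.603. Genes are not independent replicates, and all share the same libraries. The nuclear genes of the chain are short, with a median deposited length of 1534 bases against 3717 over all genes. By the authors' deposited table, 49.5% of all genes under 500 bases were higher, 84.3% of those of 500 to under 1000 bases, 78.3% of those of 1000 to under 2000 bases, 60.2% of those of 2000 to under 4000 bases, 35.6% of those of 4000 to under 8000 bases and 11% of longer ones.

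The fold changes were then set against the median of all genes of the same length class. The limit of 10 TPM uses these libraries alone, so it favours genes that are high on this side of the comparison, and it leaves out both nuclear genes called lower (Ndufb2 and Cox8b). Of the 77 genes, 66 lay above the class median of the authors' deposited table and 11 below, and the median distance was 0.87 where the median fold change was 2.39. With no limit on TPM, over all 20264 genes with an adjusted p-value, 76 of 81 nuclear genes lay above the class median of the authors' deposited table and 5 below, with a median distance of 2.17. That set brings in genes at low levels here, and its median fold change was -0.36 against 0.61 within the limit. The distance of 2.17 is therefore not matched for level. Within the limit of 10 TPM, all 8 genes of complex III, 31 of 36 of complex I, 10 of 11 of complex IV, 14 of 17 of complex V and 3 of 4 of complex II lay above. For the 20 genes of 500 to under 1000 bases, the median in the authors' deposited table was 3.23 against 2.64 for all genes of that length. For the 27 genes of 1000 to under 2000 bases it was 2.46 against 1.62, for the 21 genes of 2000 to under 4000 bases 1.80 against 0.91, and for the 7 genes of 4000 to under 8000 bases 1.56 against 0.14. The 11 below were Atp5b, Atp5c1, Atp5s, Cox7c, Cycs, Ndufa10, Ndufa9, Ndufb9, Ndufs4, Ndufs8 and Sdha. Uqcr11 stood 2.85 above its class, Ndufa6 2.26 and Sdhb 2.20, from the authors' deposited table. The part of length in the comparison itself was not tested.

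**Figure D5:**
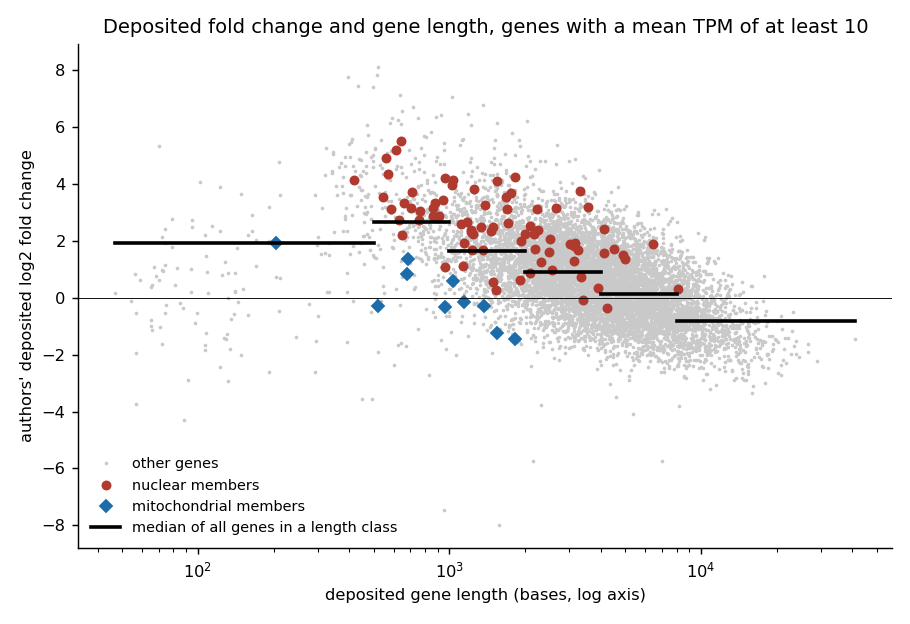
Log2 fold change from the authors' deposited table against deposited gene length in bases (log axis), for genes at a mean of 10 TPM or more. Black bars are medians of all genes in a length class, which go from 2.64 at 500 to under 1000 bases to -0.82 at 8000 bases and over, and 66 of the 77 nuclear genes of the chain that pass this limit, which is set in these libraries alone, lie above the bar of their class.

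Most mitochondrial mRNAs passed in neither direction, where 55.5% of all genes with an adjusted p-value passed in either (23.6% higher and 31.9% lower). By the authors' deposited table, of the 12 mitochondrial genes with an adjusted p-value 1 was higher, 2 were lower and 9 passed in neither direction, 4 of the 9 being genes with a near-identical full-length nuclear copy. mt-Atp8 was the higher one, at 1.94 (adjusted p = 0.00975), and mt-Co1, at -1.24 (0.00208), and mt-Nd5, at -1.47 (0.0421), were the lower ones in the authors' deposited table. mt-Cytb was at -0.17 (adjusted p = 0.733) in the authors' deposited table.

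Promoters of the nuclear genes were searched for letters of regulators known from respiratory genes. Windows from 250 bases before to 50 bases after the start, from RefSeq on GRCm38.p6, matched 67 of the 84 genes by symbol. The letters bound by NRF1 (GCGCA and GCGC with any single base, N, between them) were found on either strand in 17 of the 67 (25.4%), against 5.19% of 27025 genes with such windows. The letters CCGGAAG, bound by the GABP factor, were in 16 (23.9%, against 9.93%), and AAGATGGCG, bound by YY1, in 7 (10.4%, against 1.64%). At least 1 of the 3 was in 34 genes (50.7%, against 15.1%). Promoters of the chain were richer in G and C, with a median of 57.3% against 52.7%. At 50 to 60% G and C, 8 of 33 genes of the chain held the NRF1 letters, against 4.78% of all genes, and at 60% and over 9 of 25 did, against 11.7%. For the GABP letters the numbers were 6 of 33 against 11.6%, and 8 of 25 against 17.8%. A match describes letters in the window and shows no binding.

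The 17 genes with the NRF1 letters were Atp5c1, Atp5g2, Atp5g3, Atp5h, Atp5k, Atp5o, Cox6a1, Ndufa11, Ndufa5, Ndufa6, Ndufa8, Ndufb4, Ndufs5, Ndufs6, Sdha, Sdhd and Uqcrc1. One window each from complexes I, II, IV and V is shown to place these letters, in capitals, upstream of the RefSeq start of a subunit gene. All read 5′ to 3′ towards the gene on the minus strand of GRCm38.p6: Ndufs6 at chr13:73328483-73328533, Sdhd at chr9:50603884-50603963, Cox6a1 at chr5:115349076-115349155 and Atp5h at chr11:115420016-115420095. The letters begin 16, 79, 162 and 141 bases before the RefSeq start, in that order. In GENCODE M21 the Ndufs6 gene reaches 73328542, so its letters lie inside the gene by that annotation.
Ndufs6: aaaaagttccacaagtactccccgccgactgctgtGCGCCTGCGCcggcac
Sdhd: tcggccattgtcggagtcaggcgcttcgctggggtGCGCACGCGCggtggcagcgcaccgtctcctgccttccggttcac
Cox6a1: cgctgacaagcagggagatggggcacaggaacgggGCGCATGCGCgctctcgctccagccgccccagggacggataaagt
Atp5h: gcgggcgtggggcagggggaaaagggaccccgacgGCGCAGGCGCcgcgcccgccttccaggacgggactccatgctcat

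As a list, transcriptional regulators of respiration had a lower median than the nuclear subunits of the chain. Of 14 listed genes, 12 had a mean TPM of at least 1, and the median was 8.23 ± 1.48 TPM (SD, n = 3). In the authors' deposited table, of the 12 with an adjusted p-value 1 was higher, 5 (41.7%) were lower and 6 passed in neither direction. Of all genes with an adjusted p-value, 31.9% were lower. The median length of the 12 was 5498 bases. Among genes of 4000 to under 8000 bases at a mean of 10 TPM or more, 993 of 2787 were higher and 767 lower. The higher one of the list was Esrra, an oestrogen-related receptor that drives mitochondrial genes, with 31.9 ± 4.52 TPM (SD, n = 3) and a log2 fold change of 3.43 (adjusted p = 2.97e-13) in the authors' deposited table. Ppargc1a, the coactivator PGC-1alpha, had 1.39, 1.20 and 0.590 TPM and -3.02 (3.48e-17) there. Gabpa, the DNA-binding subunit of GABP, had 31.1 ± 1.29 TPM (SD, n = 3) and -1.41 (adjusted p = 2.64e-10) in the authors' deposited table. Yy1, at 49.3 ± 4.77 TPM (SD, n = 3), was the highest of the list.

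Genes that build and serve the chain had lower medians than its nuclear subunits. Assembly factors (48 of 50 listed genes in the table) had a median of 13.4 ± 2.20 TPM (SD, n = 3), and in the authors' deposited table, 21 of 46 (45.7%) were higher, 5 lower and 20 neither. This share and those below are to be read against the 23.6% of all genes with an adjusted p-value, or 49.3% at a mean of 10 TPM or more, that were higher in the same comparison. The share also moved with gene length, as given above. Median lengths were 2530 bases for assembly factors, 3348 for the next list, 2064 for mitochondrial ribosomal proteins, 3492 for the tricarboxylic acid cycle and 2486.5 for ATP export, uncoupling and channels. The part of length in these shares was not tested. Uqcc2, which helps to make cytochrome b of complex III, had 196, 205 and 181 TPM and was at 3.72 (adjusted p = 6.3e-37) in the authors' deposited table, followed there by the complex IV assembly factors Coa3 (3.62) and Cox14 (3.47). Genes for mitochondrial DNA replication, transcription and mRNA stability (29 of 32) had a median of 18.6, 10.05 and 10.4 TPM, highest in replicate 1, with 9 (31.0%) higher, 2 lower and 18 neither in the authors' deposited table. Polg2, the accessory subunit of the mitochondrial DNA polymerase, was at -3.03 (adjusted p = 2.02e-20) and Polrmt, the mitochondrial RNA polymerase, at 1.75 in the authors' deposited table.

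Mitochondrial ribosomal proteins, which make the 13 mitochondrial proteins, had a median of 33.5 ± 2.87 TPM over 76 genes (SD, n = 3). Of 75 with an adjusted p-value, 60 (80%) were higher, 1 lower and 14 neither in the authors' deposited table, with a median log2 fold change of 1.58. Mrps16, at 210 ± 5.58 TPM (SD, n = 3), was the highest and stood at 4.21 in the authors' deposited table, behind Mrps34 at 5.87. Tricarboxylic acid cycle genes had a median of 79.0 ± 14.1 TPM over 14 genes (SD, n = 3), with 9 (64.3%) higher, 0 lower and 5 neither in the authors' deposited table. Cs, citrate synthase, was the highest of these at 191 ± 27.5 TPM (SD, n = 3) and was at 0.26 (adjusted p = 0.384) in the authors' deposited table, while Idh2 was at 2.28. For ATP export, uncoupling and outer membrane channels the median was 86.0 ± 5.65 TPM over 12 genes (SD, n = 3), with 6 (60%) higher, 0 lower and 4 neither of 10 in the authors' deposited table. Slc25a5, an ADP/ATP carrier, had 447 ± 13.3 TPM (SD, n = 3) and was at 0.96 in the authors' deposited table.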

How the data were processed

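Read counts per gene, TPM, a log2 fold change and an adjusted p-value, gene length and a value headed H3K27me3 were deposited by the authors in 1 table for 3 libraries of alpha6+/Sca1- cells, per the file headers. The TPM values were computed by the authors, and they follow from the counts and gene lengths. The submitters' processing notes name TopHat2, SAMtools, FastQC, DESeq and DESeq2 and the builds mm10 and GRCm38, without roles. The counting tool, the strand setting and the annotation are not given in the sources used here. The log2 fold change and its p-value are the authors' own comparison and could not be refitted, since 6 columns of per-sample values match no sample and were not used.

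Of 44625 entries, 77 shared a symbol with a more highly expressed entry and were dropped. Another 27 symbols had turned into numbers and were resolved by identifier. With 1 group of 3 samples there was no contrast to test. Levels were compared on the log2(TPM + 1) scale, where 1 is the pseudocount, and isoform pairs by exact sign-flip tests. The replicate rule was tested on simulated data. Copies were sought by BLAST 2.17.0 against GENCODE M21 transcripts (GRCm38), and 11 of 84 nuclear genes had an annotated pseudogene at least 95% identical over 50% of the transcript. TMM factors came from edgeR 4.0.16 (R 4.3.3). Other steps used Python 3.11.15 with pandas 2.3.3, numpy 2.4.6 and scipy 1.17.1. Wilson intervals are at 95%, and a count of 3, the limit a count of 0 allows, equals a CPM (counts scaled to the library) of 0.102, 0.0851 and 0.0765.

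Members and gene lists were chosen with earlier results of these data known. Genes named are the mitochondrial genes, the 3 highest and 2 lowest nuclear genes per complex, isoform pairs, Cycs and the Sdh genes, the 12 largest and any opposite deposited fold changes, the 5 widest ranges over replicates, and in each further list the highest gene and the 3 largest deposited changes. Others were named after their values were seen. Alternatives were the scaling, pseudocount, filters, thresholds, gene length, copied genes and each replicate left out.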

Additional observations from a re-analysis of the deposited data

How the results depend on the processing

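Of 156 values recomputed under an alternative, 126 held, 26 moved and 4 changed sign. A level or ratio held when it moved by no more than 1 SD over replicates, a count when it stayed within 1.5 times, and an isoform ratio when it kept its direction, since its test cannot pass the threshold. The 4 changes of sign were the log2 ratio of Atp5g3 to Atp5g2 with principal transcript lengths (0.049), the mitochondrial to nuclear log2 ratios of complex IV (from -2.12 to 8.60) and complex V (from -0.07 to 3.67) without the copied genes, and the ratio of complex V without replicate 2 (0.16, range -0.32 to 0.16 over the replicates left out). Without mt-Atp8, mt-Nd4l and mt-Nd6 this ratio became 5.98 for complex I and -3.82 for complex V. Without the copied genes it was also 5.98 for complex I, and with low nuclear genes left out it was -3.33 for complex IV. Rescaled without mitochondrial genes, the nuclear medians became 129.9, 129.0, 231, 102 and 218 TPM from complex I to V. With principal transcript lengths they were 129, 117, 282, 204 and 336, and over members with a mean TPM of at least 1 that of complex IV was 209.7. From the authors' deposited table, lower nuclear genes went from 2 to 1 at an adjusted p threshold of 0.01, to 1 at a log2 fold change of at least 1 in size, and to 6 after centring on length classes at 10 TPM or more, which leaves out both of the 2; lower mitochondrial genes went from 2 to 1 at 0.01. At a deviation of 0.5 the members deviating in replicates 1, 2 and 3 numbered 10, 1 and 1, and the share of all genes at this threshold was not computed. Members highest in replicate 1 went from 38 to 14 under upper quartile scaling and 11 under TMM, and those highest in replicate 3 from 22 to 35 and 38. Principal lengths, length classes with and without the limit on TPM, and copied genes were alternatives chosen after seeing the data. The cause of these shifts was not tested beyond what each alternative changes by construction. No paired analysis was possible because all samples belong to 1 group. Depth limits Cox7a1, Cox4i2 and the genes at 0 counts, while the 8 mitochondrial genes with no annotated near-identical full-length copy have at least 4944 counts in each library.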

Other observations

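Some proteins of the chain have gene symbols outside the rule, and their values are given here. Cyc1, cytochrome c1 of complex III, had 181, 181 and 186 TPM, a mean of 182 ± 2.94 (SD, n = 3), and a log2 fold change of 1.07 (adjusted p = 3.24e-06) in the authors' deposited table. Usmg5, a small protein of the ATP synthase membrane part, had 437, 286 and 312 TPM and was at 4.39 in the authors' deposited table. The gene 2010107E04Rik, which encodes another small ATP synthase protein, had 380, 271 and 332 TPM and was at 4.59 (adjusted p = 4.94e-37) in the authors' deposited table. Both were highest in replicate 1. Ndufab1, the acyl carrier protein of complex I, had 15.7, 7.23 and 7.09 TPM and was at 0.55 (adjusted p = 0.186) in the authors' deposited table. Atpif1, the inhibitor of the ATP synthase, had 97.5, 79.8 and 72.2 TPM. Cyct, the testis form of cytochrome c, had 0 counts.

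The mitochondrial ribosomal RNAs, which a poly(A) selection captures only in part, had 37332, 62956 and 91977 counts for mt-Rnr1 and 60493, 68337 and 110252 for mt-Rnr2. In the authors' deposited table their log2 fold changes were -7.44 (adjusted p = 2.35e-25) and -7.99 (adjusted p = 5.89e-107), while the mitochondrial mRNAs with an adjusted p-value under 0.05 lay between -1.47 and 1.94.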
